A study of Homo sapiens with 18 samples.

Results

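The strength of the response to lipopolysaccharide (LPS) was compared between THP-1 cells in which NR4A2 or NR4A3 had been knocked down. THP-1 is a human monocytic leukaemia cell line, and the lines compared each carry a stable short hairpin RNA, called shNR4A2 and shNR4A3 after the targeted transcript. Cells without stimulus served as control, the others received LPS at 2.5 μg/ml for 2 h, and polyadenylated RNA was sequenced from 3 libraries in each of the 4 groups, 12 of the 18 libraries of the series. All of these cells carry a hairpin, so neither line is an unmodified cell, and each hairpin target is represented by a single line. The other 6 libraries, of cells with a non-targeting hairpin (shNT) with and without LPS, were used to choose the LPS-responsive genes on which amplitude was measured. Read counts per gene summed to between 16171161 and 23929138 per library, with a median of 19078157. The study describes independent experiments, but the labels do not tie libraries to separate cultures beyond a replicate number, so the p-values measure the spread between these libraries.

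LPS is the cell-wall glycolipid of Gram-negative bacteria. It is handed by CD14 to the TLR4 and MD-2 (LY96) receptor, and the adaptors MyD88 and TRIF carry the signal to NF-kB, MAP kinases and interferon regulatory factors. The first targets are cytokines, chemokines and their own inhibitors, such as NFKBIA, which encodes the IkB-alpha protein that holds NF-kB in the cytoplasm. NR4A1, NR4A2 and NR4A3 are orphan nuclear receptors that are themselves immediate early genes of this response and are known as modulators of NF-kB-driven transcription in monocytes and macrophages.

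The libraries carried the transcripts of the labelled cell type. All 12 monocyte markers had counts in each of the 12 libraries, with a summed level of 2337 to 4171 TPM (counts divided by gene length and scaled to the same sum in each library). SPI1 ran from 587.7 to 1132 TPM, LYZ from 462.1 to 1040 TPM and TYROBP from 435.2 to 710.4 TPM, whereas CD68 and MPO stayed below 6.47 TPM. The summed level was 3032 to 3387 TPM in shNR4A2 control, 2337 to 2772 TPM in shNR4A2 LPS, 3588 to 4171 TPM in shNR4A3 control and 2754 to 3172 TPM in shNR4A3 LPS libraries, so it was higher in shNR4A3 cells in the control libraries and lower with LPS in both lines. CEBPA, a myeloid transcription factor, was the 1 marker of 12 called lower, from 945 to 217 TPM in shNR4A2 and from 1137 to 187 TPM in shNR4A3 cells, and the median log2 fold change of the 12 was 0.04 and -0.06. In bulk RNA, fewer cells of a type and less RNA per cell cannot be told apart. Markers of T cells (5 genes, summed level at most 1.40 TPM), erythroid cells (4 genes, at most 0.710 TPM), fibroblasts (4 genes, at most 0.994 TPM) and epithelial cells (4 genes, at most 0.689 TPM) were at or near 0. Of the B cell markers, MS4A1 had 3 counts over all 12 libraries, and CD79B had 1.33 to 5.41 TPM.

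Each hairpin target had its lower levels in the line carrying that hairpin. NR4A2 (ENSG00000153234, chromosome 2, 156324432 to 156342348, GRCh38) had 1.82, 1.63 and 2.405 TPM in shNR4A2 control and 20.5, 28.3 and 14.8 TPM in shNR4A2 LPS libraries, against 2.51, 2.96 and 3.31 TPM in shNR4A3 control and 41.8, 60.8 and 38.3 TPM in shNR4A3 LPS libraries. Every shNR4A2 library was below every shNR4A3 library of the same condition. NR4A3 (ENSG00000119508, chromosome 9, 99821855 to 99866891) had 0.158, 0.107 and 0.0315 TPM in shNR4A3 control and 17.0, 18.2 and 16.6 TPM in shNR4A3 LPS libraries, against 0.707, 0.694 and 1.41 TPM in shNR4A2 control and 33.0, 32.8 and 36.1 TPM in shNR4A2 LPS libraries. The order was again complete in both conditions, but the shNR4A3 control level rested on 9 counts over 3 libraries.

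LPS still induced each targeted gene in its own knockdown line. The LPS log2 fold change of NR4A3 was 5.44 (standard error 0.21) in shNR4A2 and 7.62 (standard error 0.52) in shNR4A3 cells, a difference of 2.18 (95% interval 0.98 to 3.38), so the gene with the lower level in shNR4A3 cells had the higher fold change there. The fold change from a control level of 9 counts depends on the prior count and is given as a description. NR4A2 rose by a log2 of 3.69 (standard error 0.23) in shNR4A2 and 4.22 (standard error 0.22) in shNR4A3 cells, with a difference of 0.53 (95% interval -0.16 to 1.22). NR4A1, which neither hairpin targets, rose by 1.40 and 1.88, with a difference of 0.48 (95% interval -0.10 to 1.06). For NR4A1 and NR4A2 the interval spanned 0, although the shNR4A3 response was the higher one within all 3 replicate numbers. The fit with an LPS effect for each replicate number, given below, called neither gene (adjusted p = 0.309 and 0.454, edgeR).

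The amplitude of the LPS response was higher in shNR4A3 cells within every replicate number, by less than the spread between the numbers. For each replicate number, amplitude was the slope of the change with LPS (LPS library minus the control library of that number, on the log2 CPM scale, counts scaled to library size) on the LPS log2 fold change of shNT cells, over the 1177 genes called in shNT cells (690 raised, 487 lowered) that were also tested here. In shNT cells 7.56% of the genes tested there were called, 4.42% higher and 3.14% lower. A slope of 1 would mean a change as large as the shNT fold change. The genes were chosen for their change in shNT cells, and the changes on the axes were computed in different ways. The slopes are therefore compared between the lines and not with 1. The slopes were 0.959, 0.836 and 0.959 in shNR4A2 cells (0.918 ± 0.0710, SD, n = 3) and 1.03, 0.878 and 0.998 in shNR4A3 cells (0.969 ± 0.0805, SD, n = 3). The values of the lines overlapped, and replicate 2 was the weakest in both.

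The difference of the mean slopes was 0.0506, a ratio of 1.06 (exact permutation test, 2-sided, p = 0.5, where 3 against 3 allow no p below 0.1). Within each replicate number the shNR4A3 slope was the higher one, by 0.0711, 0.0414 and 0.0393 (0.0506 ± 0.0177, SD, n = 3 pairs). An exact sign-flip test of these paired differences, added after the slopes were seen, gave p = 0.25, the smallest that this test can give with 3 pairs. Over the raised genes the slopes were 0.968, 0.844 and 0.964 in shNR4A2 and 1.04, 0.889 and 1.01 in shNR4A3 cells, a difference of 0.0535 (ratio 1.06, exact permutation p = 0.5). Over the lowered genes they were 0.905, 0.788 and 0.925 against 0.989, 0.801 and 0.923, a difference of 0.0319 (ratio 1.04, exact permutation p = 0.6), and replicate 3 had the opposite sign. With an intercept in the regression the differences were 0.0432 over all genes, 0.0103 over the raised and 0.0409 over the lowered genes. Leaving out single libraries, which leaves the replicate numbers unbalanced between the lines, moved the difference over all genes. It was 0.00932 without shNR4A2 LPS replicate 2. For shNR4A3 LPS it was 0.0196 with replicate 1 left out and 0.0965 with replicate 2 left out. Leaving out the control library of the same number removes the same slope. The values, 0.00962, 0.0198 and 0.0964, are therefore nearly the same and no further check. With replicate 2 left out of all 4 groups, which keeps the numbers balanced, the difference was 0.0566.

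**Figure D1:**
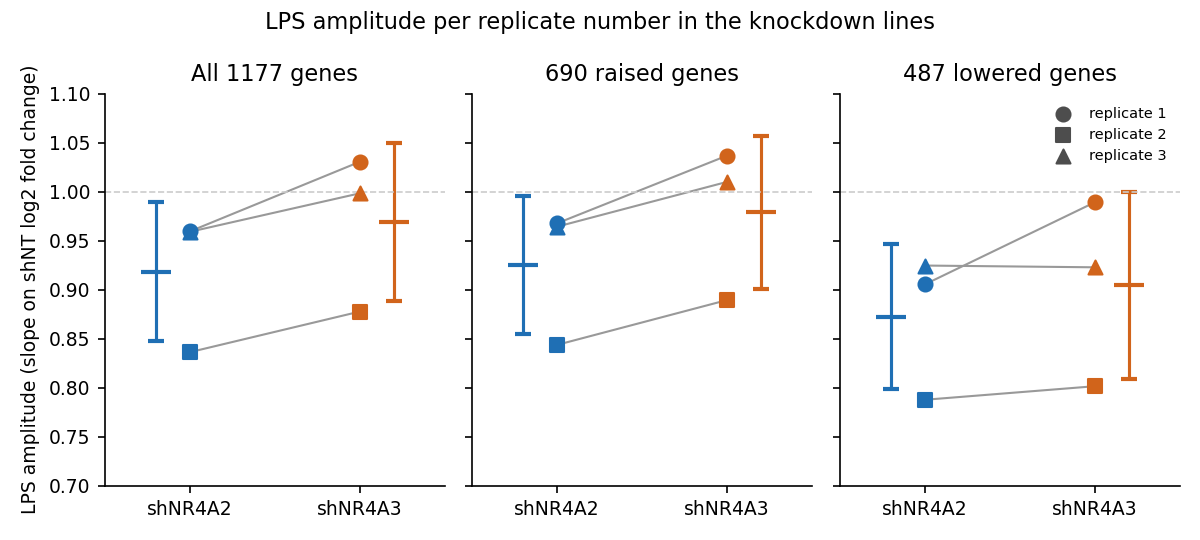
LPS amplitude of the knockdown lines, as the slope of the log2 change with LPS on the shNT log2 fold change, over all 1177 genes, the 690 raised and the 487 lowered genes. Circles, squares and triangles are replicates 1, 2 and 3, grey lines join the same number, horizontal marks and bars are mean ± SD (n = 3), and the dashed line is a slope of 1. The y axis runs from 0.7 to 1.1, and replicate 2 is lowest in every panel.

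Most genes called in one line were called in the other. With limits of 0.05 on the adjusted p and 2-fold on the change (edgeR quasi-likelihood test, Benjamini-Hochberg adjustment over 16447 genes), 1498 genes (9.11% of those tested) were called in shNR4A2 and 1679 (10.2%) in shNR4A3 cells. LPS raised 904 (5.50%) and lowered 594 (3.61%) of them in shNR4A2 cells, and raised 1029 (6.26%) and lowered 650 (3.95%) in shNR4A3 cells. Of these, 1240 were called in both lines, which is 82.8% of the shNR4A2 calls and 73.9% of the shNR4A3 calls. All 1240 had the same direction, 831 higher and 409 lower. The 258 and 439 genes called in a single line crossed the limits there only, which does not show that their responses differ.

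The test of the difference itself called no gene in the edgeR fit of 4 group means. The interaction of line and LPS, the shNR4A3 minus the shNR4A2 LPS log2 fold change, had 0 of 16447 genes at an adjusted p under 0.05 (0% called, edgeR, smallest adjusted p = 0.900). DESeq2 called 1, AL663070.1, and fits that called more are given below. At an unadjusted p under 0.05 there were 396 genes (2.41%), 299 (1.82%) with the higher fold change in shNR4A3 and 97 (0.590%) with the lower one. The 2.41% is below the share of 0.05 that the limit passes when no gene differs, so it is no excess. The fit of 4 group means leaves the spread shared by a replicate number in its error. With shNR4A2 control replicate 2 left out of it there were 622, of which 372 were higher and 250 lower. The fit with an LPS effect for each replicate number, given below, had 1302, of which 803 were higher and 499 lower. The precision limits the test of the difference. The 95% interval of the difference had a median half-width of 0.513 on the log2 scale over all genes and 0.878 over those called in shNT cells. The interval lay within a 2-fold difference for 11200 genes (68.1%) and for 405 (34.4%) of the shNT-called genes.

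Genes that LPS raised in shNT cells leaned towards a higher fold change in shNR4A3 cells. Their median LPS log2 fold change was 2.36 in shNR4A2 and 2.59 in shNR4A3 cells, the median difference was 0.20, and it was above 0 for 474 of 690 (68.7%), against 47.8% and a median of -0.01 over all genes tested. Of the 690, 63 (9.13%) had an unadjusted p under 0.05, 55 of them higher in shNR4A3. The medians over the raised genes within replicate numbers 1, 2 and 3 were 0.26, 0.13 and 0.12. The lowered genes had medians of -1.30 and -1.36, a median difference of -0.06, and 43.3% above 0. No p is given for these lists, since genes of one library are not independent replicates, and the values moved with single libraries in the way of the amplitude. For the raised genes the median was 0.08 without shNR4A2 LPS replicate 2 or shNR4A3 LPS replicate 1, and 0.33 when replicate 2 of shNR4A3 LPS was left out. For the lowered genes it was 0.03, of opposite sign, when replicate 2 of shNR4A2 LPS was left out and -0.20 when replicate 2 of shNR4A3 LPS was. With replicate 2 left out of all 4 groups the medians were 0.21 for the raised and -0.08 for the lowered genes.

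**Figure D2:**
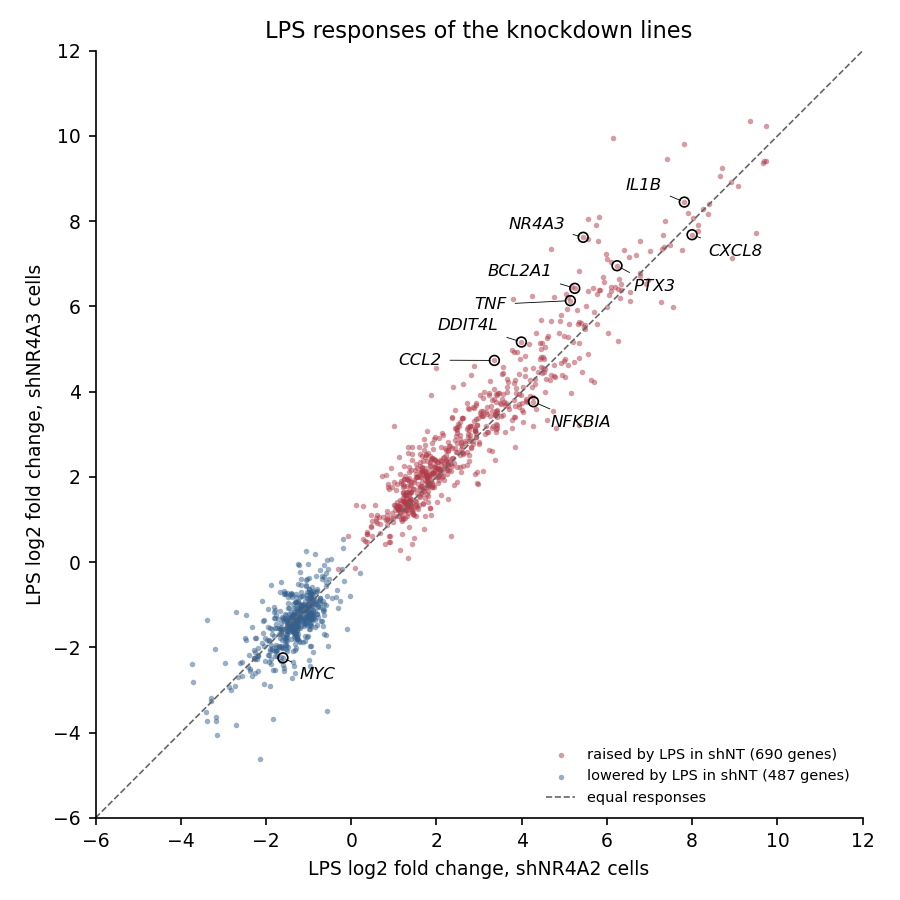
LPS log2 fold change in shNR4A2 cells (x axis) and shNR4A3 cells (y axis), 1 point per gene called in shNT cells, red for the 690 raised and blue for the 487 lowered genes. The dashed line marks equal responses, and named genes are circled. The cloud follows the line, with 68.7% of the red points above it.

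The 12 genes with the smallest p for a higher fold change in shNR4A3 cells, called or not, were AL663070.1, AL139393.2, GOLGA8A, NR4A3, AC083843.2, LINC00106, AC010680.2, DDIT4L, MIR222HG, ASMTL-AS1, AHSA2P and CCDC17. Their differences ran from 0.71 (AHSA2P) to 2.18 (NR4A3), and in all of them the 3 responses of one line lay apart from those of the other, as they did for 1703 genes (10.4%) of those tested. The 12 were picked by the p of this same difference, so the separation is no separate support. By the annotation, 8 of the 12 were not protein-coding genes, against 18.7% of all genes tested. Among the 12 genes with the smallest p in the other direction, 3 of 12 were not.

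AL663070.1 (ENSG00000228477, chromosome 1, 39962680 to 39963404), a processed pseudogene, had the smallest p. It had 40.8, 28.4 and 32.5 TPM in shNR4A2 control, 64.4, 73.6 and 75.0 TPM in shNR4A2 LPS, 22.8, 22.5 and 23.3 TPM in shNR4A3 control and 122, 131 and 96.1 TPM in shNR4A3 LPS libraries. The shNR4A3 line was lower in all control libraries and higher in all LPS libraries. The LPS log2 fold change was 1.33 (standard error 0.15) and 2.57 (standard error 0.16), a difference of 1.24 (95% interval 0.76 to 1.71, edgeR). The pseudogene lies on the same strand within MFSD2A, a lysophosphatidylcholine transporter gene with a mean of 637 TPM over these libraries, and reads of the overlapping genes cannot be told apart here.

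AL139393.2, an antisense transcript that overlaps MAP3K4, rose from 8.61 ± 1.42 to 38.6 ± 0.349 TPM in shNR4A2 and from 4.46 ± 0.792 to 45.4 ± 3.06 TPM in shNR4A3 cells (SD, n = 3 each). Its difference was 1.14 (95% interval 0.66 to 1.63). DDIT4L, which encodes an inhibitor of mTOR signalling, rose from 5.57 ± 1.04 to 73.3 ± 5.74 TPM and from 2.00 ± 0.268 to 61.0 ± 13.8 TPM, with a difference of 1.17 (95% interval 0.56 to 1.78). MIR222HG, the host transcript of miR-221 and miR-222, rose from 4.06 ± 0.212 to 8.46 ± 1.60 TPM and from 1.96 ± 0.579 to 10.9 ± 1.42 TPM, with a difference of 1.37 (95% interval 0.66 to 2.08). These 3 rose in both lines and started from a lower level in shNR4A3 cells, in every library.

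GOLGA8A, a golgin family gene with near-identical copies, went in shNR4A2 cells from 19.9, 20.6 and 25.01 TPM to 10.99, 12.9 and 12.5 TPM, while shNR4A3 cells had 16.1, 18.8 and 16.6 TPM in control and 14.1, 19.4 and 17.5 TPM with LPS. The difference was 0.80 (95% interval 0.45 to 1.14). LINC00106 and ASMTL-AS1, which lie in the region shared by the X and Y chromosomes, went from 24.7 ± 3.28 to 9.42 ± 1.35 TPM and from 17.5 ± 0.980 to 7.14 ± 1.37 TPM in shNR4A2 cells, and from 19.3 ± 1.58 to 19.1 ± 4.71 TPM and from 14.8 ± 1.94 to 13.1 ± 2.16 TPM in shNR4A3 cells (SD, n = 3 each). AHSA2P went from 17.8 ± 2.11 to 9.77 ± 1.39 TPM in shNR4A2 and from 16.3 ± 1.93 to 15.1 ± 1.03 TPM in shNR4A3 cells. For these 4 transcripts the LPS libraries of shNR4A2 were below all those of shNR4A3. AC083843.2, AC010680.2 and CCDC17 were low, with group means of at most 4.60 TPM. Whether the counting used strand is not given in the sources used here, so reads of antisense transcripts such as AL139393.2, AC010680.2 and ASMTL-AS1 (which overlaps ASMTL) cannot be told apart from those of their partners.

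The 12 genes with the smallest p for a lower fold change in shNR4A3 cells were EPS8L3, SNAI3, ELL2P1, PLEKHD1, BLNK, TRGV3, P2RY13, NFKBIA, DLX3, NRP2, AC021851.1 and FFAR4. Only NFKBIA among them was abundant. SNAI3, a Snail family repressor, had 15.2, 22.01 and 18.5 TPM in shNR4A2 control and 3.27, 6.84 and 7.40 TPM in shNR4A2 LPS libraries, against 31.9, 40.4 and 31.7 TPM in shNR4A3 control and 4.05, 5.01 and 4.45 TPM in shNR4A3 LPS libraries. It was higher in shNR4A3 control libraries and fell to an overlapping level, with log2 fold changes of -1.39 and -2.71 and a difference of -1.32 (95% interval -2.03 to -0.62). DLX3, a homeobox gene, fell with log2 fold changes of -1.84 and -3.68, a difference of -1.84 (95% interval -2.99 to -0.70). FFAR4, a receptor for long-chain fatty acids, had log2 fold changes of -2.13 and -4.61, but its shNR4A3 LPS level rested on 6 counts.

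P2RY13, a purinergic receptor, and NRP2, a semaphorin and VEGF receptor, rose in shNR4A2 cells, from 0.247 ± 0.116 to 2.42 ± 0.599 TPM and from 0.0892 ± 0.00660 to 0.666 ± 0.338 TPM. In shNR4A3 cells they reached 0.615 ± 0.0706 TPM and 0.199 ± 0.0544 TPM (SD, n = 3 each). EPS8L3 went from 1.30 ± 0.248 to 1.44 ± 0.329 TPM in shNR4A2 and from 1.23 ± 0.180 to 0.414 ± 0.0263 TPM in shNR4A3 cells, and BLNK, a B cell adaptor, from 1.30 ± 0.318 to 1.096 ± 0.197 TPM and from 2.11 ± 0.270 to 0.626 ± 0.173 TPM. The remaining ones, ELL2P1, PLEKHD1, TRGV3 and AC021851.1, had 6 to 87 counts per group, and ELL2P1 is a pseudogene whose reads may come from its parent gene.

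Replicate 2 responded less in both lines, and the numbers pair the libraries. A fit that gives each replicate number an LPS effect of its own was chosen after the data were seen. It leaves 4 residual degrees of freedom, against 8 in the fit of 4 group means, so its small p-values rest on few. It called 34 genes (0.207% of those tested) at an adjusted p under 0.05 by edgeR. In 30 (0.182%) the LPS log2 fold change was higher in shNR4A3 and in 4 (0.0243%) it was lower. The planned fit with replicate number as a block but 1 common LPS effect called 0, with 874 genes at an unadjusted p under 0.05. The analysis without a filter on low counts called 29 of 43508 genes (0.0667%), 25 of them among the 34. Its difference for TNF was 1.01, against 0.99 in the fit of 4 group means. The unadjusted p (edgeR) was 4.6e-10, against 0.0049. It used the same 12 libraries, so the overlap is no separate support for the 34. For these genes the fold changes, differences and intervals below are those of the fit of 4 group means, and the adjusted p-values are those of the fit with an LPS effect for each number, so an interval that spans 0 can stand beside an adjusted p under 0.05. The genes of this group described below were named after their values were seen, except those already given. Of the 34, 22 had risen past the limits in both lines, against 831 of all 16447 genes tested. Among the 690 genes raised in shNT cells, of the same 16447, were 23 of the 34.

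Among the 30 were TNF, IL1B, CCL2, BCL2A1 and PTX3, picked from them with no test of a gene group. TNF (ENSG00000232810, chromosome 6, 31575567 to 31578336), the prototype inflammatory cytokine, had 55.5, 96.8 and 65.4 TPM in shNR4A2 control and 2223, 2130 and 2026 TPM in shNR4A2 LPS libraries. In shNR4A3 cells it had 19.3, 39.8 and 35.2 TPM in control and 1964, 1712 and 1929 TPM in LPS libraries. The shNR4A3 level was below the shNR4A2 level in both conditions, and further below in the control. TNF rose 49.9-, 24.3- and 38.9-fold in shNR4A2 and 119-, 49.6- and 63.7-fold in shNR4A3 cells for replicates 1, 2 and 3 (from log2 CPM with a prior count of 2). The log2 fold changes were 5.14 (standard error 0.21) and 6.14 (standard error 0.22), with a difference of 0.99 (95% interval 0.35 to 1.64, adjusted p = 0.00210 with each number given its own LPS effect).

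IL1B (ENSG00000125538, chromosome 2, 112829751 to 112836903), the pyrogenic interleukin, was the most abundant of these transcripts. It had 35.6, 28.02 and 33.5 TPM in shNR4A2 control and 7943, 5137 and 4963 TPM in shNR4A2 LPS libraries, and 17.5, 18.1 and 18.3 TPM in shNR4A3 control and 6508, 4415 and 5054 TPM in shNR4A3 LPS libraries. The control levels did not overlap and the LPS levels did. The difference of the log2 fold changes of 7.82 and 8.45 was 0.63 (95% interval 0.03 to 1.24, adjusted p = 0.00675 with each number given its own LPS effect). CCL2, the monocyte chemoattractant, had 9.30, 10.1 and 7.95 TPM in shNR4A2 control and 3.41, 3.42 and 3.81 TPM in shNR4A3 control libraries, and with LPS 106, 56.0 and 69.2 TPM against 111, 55.6 and 73.7 TPM. Its LPS levels matched by replicate number while its control levels stood apart, and the difference was 1.37 (95% interval 0.42 to 2.33, adjusted p = 0.00210 with each number given its own LPS effect).

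BCL2A1, which encodes an anti-apoptotic BCL2 relative, had 16.8, 12.1 and 14.05 TPM in shNR4A2 control and 567, 309 and 470 TPM in shNR4A2 LPS libraries, and 5.86, 3.74 and 3.11 TPM in shNR4A3 control and 397, 200 and 335 TPM in shNR4A3 LPS libraries. Within each number it was lower in shNR4A3 cells in both conditions, with a difference in fold change of 1.18 (95% interval 0.09 to 2.27, adjusted p = 0.00675 with each number given its own LPS effect). PTX3, a soluble pattern recognition molecule, rose by 6.24 and 6.96 on the log2 scale, a difference of 0.72 (95% interval -0.12 to 1.56, adjusted p = 0.00814 with each number given its own LPS effect).

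NFKBIA (ENSG00000100906, chromosome 14, 35401511 to 35404749) moved the other way. It had 124, 119 and 115 TPM in shNR4A2 control and 2105, 1938 and 1721 TPM in shNR4A2 LPS libraries, and 148, 154 and 141 TPM in shNR4A3 control and 1818, 1636 and 1674 TPM in shNR4A3 LPS libraries. The control level was higher in every shNR4A3 library, and the LPS levels overlapped. The gene rose 21.2-, 17.99- and 18.8-fold in shNR4A2 and 14.5-, 12.3- and 13.8-fold in shNR4A3 cells. The log2 fold changes were 4.28 and 3.76, a difference of -0.51 (95% interval -0.83 to -0.20, adjusted p = 0.00675 with each number given its own LPS effect). The 3 responses of each line did not overlap.

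**Figure D3:**
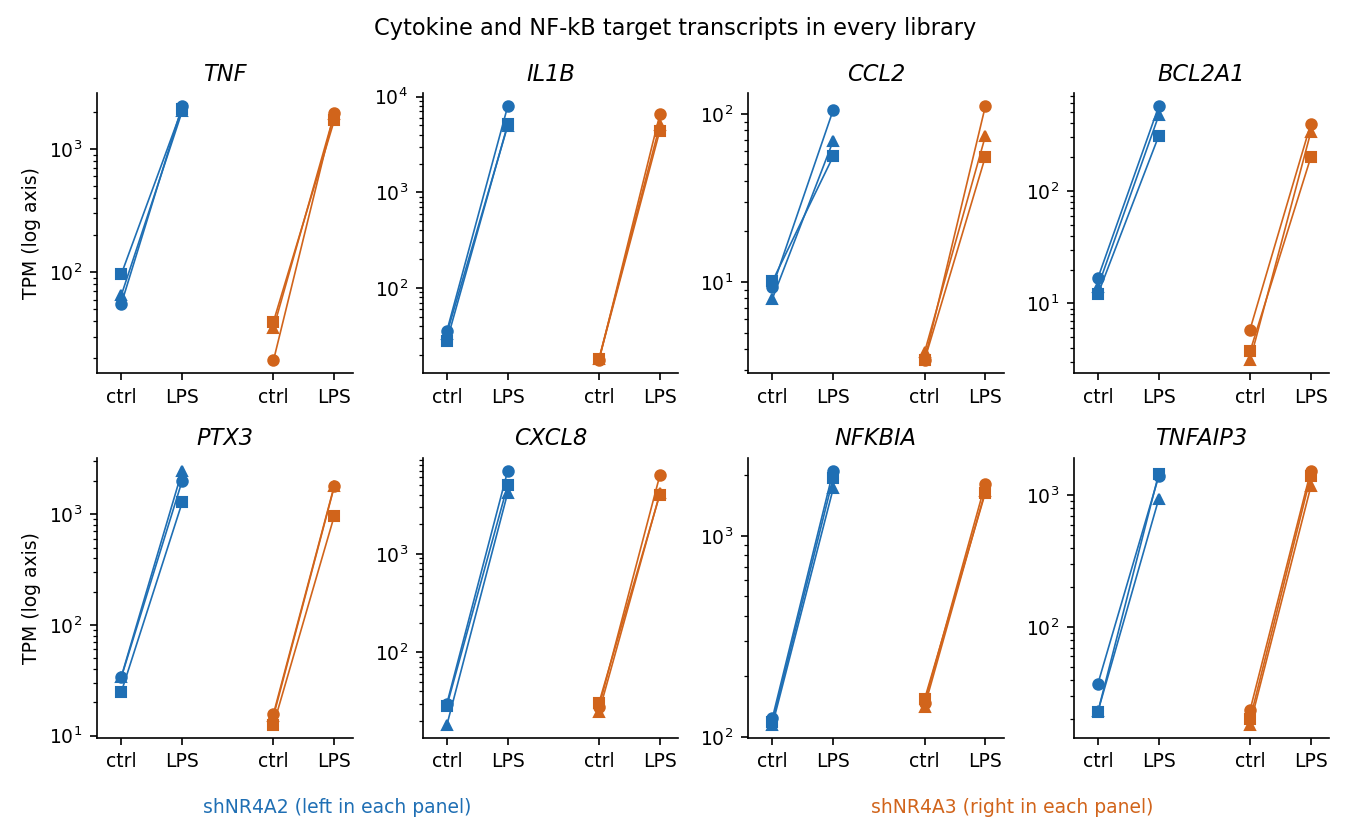
TPM on a log axis in every control and LPS library for TNF, IL1B, CCL2, BCL2A1, PTX3, CXCL8, NFKBIA and TNFAIP3, shNR4A2 in blue on the left and shNR4A3 in orange on the right of each panel. Circles, squares and triangles are replicates 1, 2 and 3, joined within a number. The orange control points of TNF, IL1B, CCL2, BCL2A1 and PTX3 lie below the blue ones, and those of NFKBIA lie above them. The LPS points of IL1B, CCL2, BCL2A1, PTX3, CXCL8 and NFKBIA overlap.

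The promoters of TNF, IL1B and NFKBIA are shown because these abundant early targets of NF-kB were called in opposite directions by the fit with an LPS effect for each replicate number. Each is the window from 250 bases before to 50 bases after the transcription start (RefSeq, GRCh38.p14, 5′ to 3′ on the strand of the gene). They lie at chr6:31575315-31575614 on the plus strand (TNF), chr2:112836730-112837029 on the minus strand (IL1B) and chr14:35404700-35404999 on the minus strand (NFKBIA). Capitals mark matches to the kB motif, searched as GGG, then any 5 bases, then CC, on either strand.
TNF: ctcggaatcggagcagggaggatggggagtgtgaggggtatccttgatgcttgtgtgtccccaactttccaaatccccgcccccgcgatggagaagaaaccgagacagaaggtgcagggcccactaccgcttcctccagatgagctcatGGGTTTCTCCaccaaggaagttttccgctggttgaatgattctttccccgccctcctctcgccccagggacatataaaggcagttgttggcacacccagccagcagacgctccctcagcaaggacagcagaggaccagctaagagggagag
IL1B: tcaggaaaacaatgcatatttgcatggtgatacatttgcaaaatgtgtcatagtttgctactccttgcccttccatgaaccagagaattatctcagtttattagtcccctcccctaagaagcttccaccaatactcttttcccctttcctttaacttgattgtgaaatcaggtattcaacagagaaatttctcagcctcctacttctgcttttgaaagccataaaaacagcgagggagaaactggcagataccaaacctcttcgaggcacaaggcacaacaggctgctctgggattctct
NFKBIA: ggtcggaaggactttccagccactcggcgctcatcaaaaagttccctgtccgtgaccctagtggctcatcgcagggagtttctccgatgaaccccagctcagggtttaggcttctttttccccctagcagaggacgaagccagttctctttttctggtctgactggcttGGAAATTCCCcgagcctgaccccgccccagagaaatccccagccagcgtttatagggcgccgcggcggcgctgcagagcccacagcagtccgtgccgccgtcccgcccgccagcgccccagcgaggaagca
The TNF and NFKBIA windows hold 1 match each, GGGTTTCTCC and GGAAATTCCC, and the IL1B window holds 0. These letters are loose, since 58.7% of 35116 RefSeq promoter windows of this length hold a match. Among the 34 genes, 25 had a window and 17 of those (68.0%) held one, against 73.8% of 431 matched genes raised in shNT cells. None of the 25 windows held the NR4A response element NBRE (AAAGGTCA), which 1.22% of all windows hold, or the CRE (TGACGTCA, 1.85%), 3 held an AP-1 match (TGANTCA, 7.71%) and 1 an ISRE core (GAAA, any 2 bases, GAAA, 3.57%). These are descriptions of letters, both strands searched, and not of bound sites.

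The larger fold changes in shNR4A3 cells went with lower control levels. The control level enters each fold change, so this describes the difference and is no separate result. In all 30 genes the fitted control level was lower in shNR4A3 than in shNR4A2 cells, with a median log2 difference of -0.63, while the LPS level was higher in 21 of 30, with a median of 0.22. Over the 690 genes raised in shNT cells, the control level was lower in shNR4A3 in 61.7% (median -0.12) and the LPS level higher in 58.0% (median 0.07), against 50.9% and 48.7% of all genes tested. For TNF the log2 difference between the lines was -1.18 in control (adjusted p = 0.00945, edgeR) and -0.18 with LPS (adjusted p = 0.707). For CCL2 it was -1.31 in control (adjusted p = 0.0665, edgeR) and 0.06 with LPS (adjusted p = 0.939). The shNT cells, for reference, had 51.6 to 72.3 TPM of TNF, 19.6 to 27.6 TPM of IL1B and 8.62 to 14.6 TPM of CCL2 without LPS. The levels of all 3 genes in shNR4A3 control libraries were below these ranges, and the IL1B level of shNR4A2 control libraries was above.

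PRDM1 and MYCL had overlapping control levels and separate LPS levels. PRDM1, which encodes the transcriptional repressor Blimp-1, had 17.3, 12.1 and 14.05 TPM in shNR4A2 control and 14.7, 12.5 and 11.2 TPM in shNR4A3 control libraries, and with LPS 27.0, 20.6 and 18.1 TPM against 44.1, 37.0 and 29.2 TPM. The control levels overlapped and the LPS levels did not. The log2 fold changes were 0.87 and 1.75, a difference of 0.88 (95% interval 0.29 to 1.48, adjusted p = 0.00210 with each number given its own LPS effect). MYCL, a MYC family gene, had log2 fold changes of 0.51 and 1.34, a difference of 0.83 (95% interval 0.25 to 1.41, adjusted p = 0.00527 with each number given its own LPS effect), with 15.7 to 25.3 TPM in shNR4A2 LPS and 28.7 to 40.1 TPM in shNR4A3 LPS libraries. MYC itself fell in both lines, from 254, 265 and 272 TPM to 90.4, 56.0 and 68.2 TPM in shNR4A2 and from 359, 401 and 356 TPM to 81.0, 51.7 and 66.5 TPM in shNR4A3 cells. It ended at overlapping levels, and its log2 fold changes of -1.60 and -2.25 differed by -0.64 (95% interval -1.21 to -0.08, adjusted p = 0.00243 with each number given its own LPS effect).

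The remaining members of the 34 had mixed roles. BCL6, a transcriptional repressor, rose by 3.36 and 4.06 on the log2 scale, a difference of 0.70 (95% interval 0.19 to 1.21). CD44, the hyaluronan receptor, rose from 67.3 ± 5.91 to 131 ± 24.0 TPM in shNR4A2 and from 41.6 ± 4.36 to 136 ± 32.6 TPM in shNR4A3 cells, a difference of 0.71 (95% interval 0.14 to 1.29). MFSD2A rose from 398 ± 11.2 to 924 ± 147 TPM and from 254 ± 11.1 to 972 ± 166 TPM, a difference of 0.68 (95% interval 0.22 to 1.14). TP53INP2, an autophagy regulator, had the smallest adjusted p of the fit with an LPS effect for each number (0.000317) and rose by 1.62 and 2.54. PTAFR, the platelet-activating factor receptor, rose by 1.42 and 2.41, RCAN1, a calcineurin inhibitor, by 2.85 and 3.64, IRS1, the insulin receptor substrate, by 1.95 and 2.89, and PDGFA, a growth factor, by 1.74 and 2.51. VEGFA went from 68.0 ± 18.4 to 51.2 ± 12.05 TPM in shNR4A2 and from 52.4 ± 8.07 to 60.2 ± 13.2 TPM in shNR4A3 cells, with an interval of the difference of -0.10 to 1.24. The others were MSC, AGPAT4, ANKRD33B, NAV3, VILL, HELZ2, TIFAB, ZMIZ2, LENG8, SLC9A3-AS1, AL663070.1, AL139393.2, GOLGA8A and DDIT4L among the higher ones, and SNAI3 and DLX3 among the lower.

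**Figure D4:**
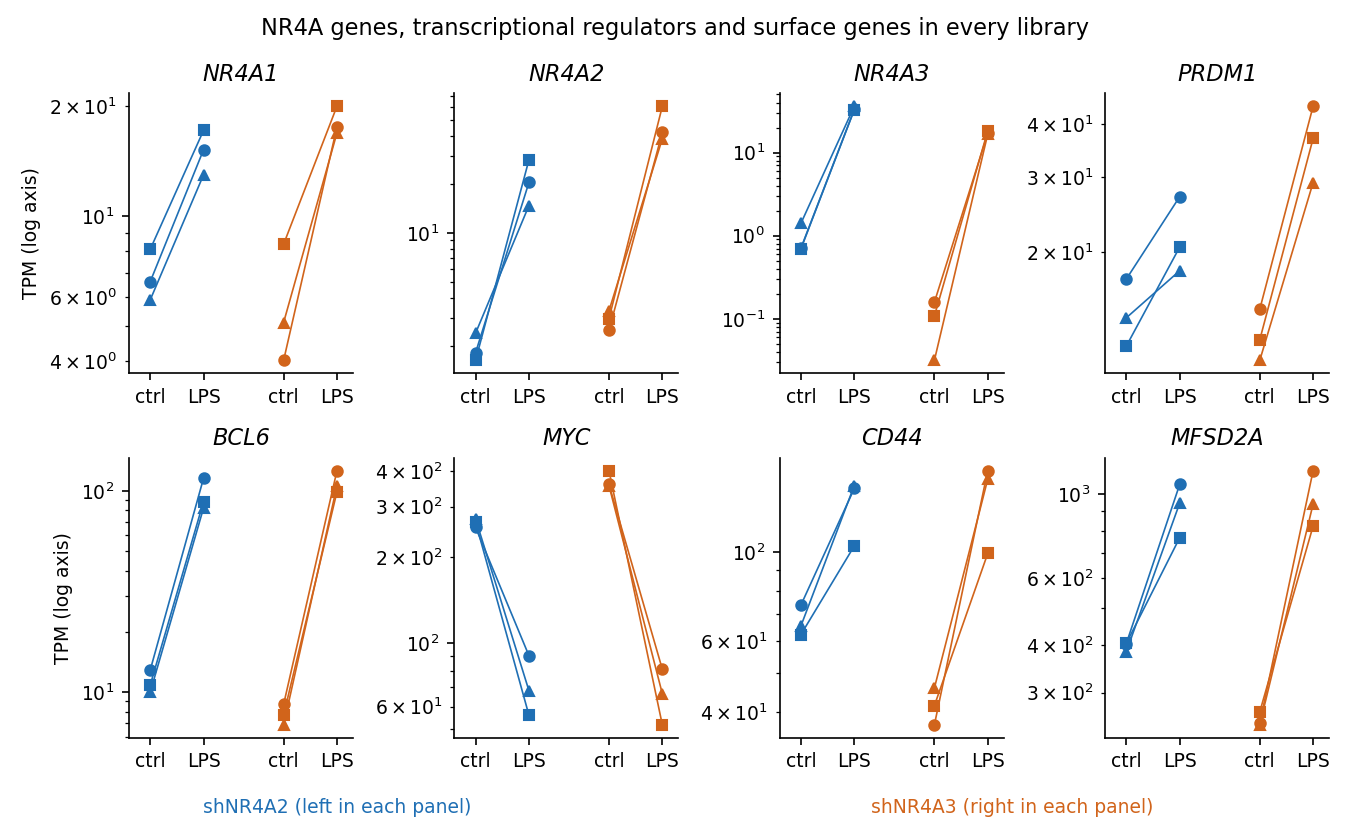
TPM on a log axis in every control and LPS library for NR4A1, NR4A2, NR4A3, PRDM1, BCL6, MYC, CD44 and MFSD2A, shNR4A2 in blue on the left and shNR4A3 in orange on the right of each panel. Circles, squares and triangles are replicates 1, 2 and 3, joined within a number. The orange PRDM1 points lie above the blue ones with LPS alone, and those of MFSD2A and CD44 lie below them in control alone.

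Genes of the receptor complex and its adaptors had differences on both sides of 0. Of 17 tested members, 3 rose in each line, and the median difference was 0.01, with 9 above and 8 below 0. For this and the lists below, the shares over all genes tested were 5.50% raised in shNR4A2 and 6.26% in shNR4A3 cells. The difference was above 0 for 47.8% of all genes tested. TLR4 went from 19.7 ± 5.67 to 21.3 ± 4.39 TPM in shNR4A2 and from 21.0 ± 2.63 to 28.6 ± 6.93 TPM in shNR4A3 cells (SD, n = 3 each), with an interval of the difference of -0.35 to 0.94. CD14 had group means of 27.0 to 50.2 TPM and LY96 of 1.58 to 4.50 TPM, with no called response in either line. IRAK2, a kinase downstream of MyD88, rose by 4.91 and 4.68 on the log2 scale, TAB2 by 1.43 and 1.35, and IRAK1 had values of 0.06 and 0.07. MYD88, TIRAP and IRAK3 were named after their values were seen. MYD88 had log2 fold changes of 0.19 and 0.59, and its LPS level was higher in shNR4A3 cells by 0.50 on the log2 scale (adjusted p = 0.0401, edgeR). TIRAP, the adaptor that brings MyD88 to the receptor, had -0.82 and -1.18 and passed the limits in shNR4A3 cells. IRAK3, an inhibitory kinase relative, had log2 fold changes of 0.20 and 0.38. Its level was higher in shNR4A3 cells by 0.31 on the log2 scale in control (adjusted p = 0.110, edgeR) and by 0.49 with LPS (adjusted p = 0.00903).

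NF-kB subunits rose in both lines. Of the 5, 4 rose in each, and the difference was above 0 in 5 of 5, with a median of 0.20. Over all genes tested 5.50% and 6.26% rose, and 47.8% had a difference above 0. Among the genes raised in shNT cells 68.7% had one above 0. NFKB2 rose by 4.54 and 5.04 (interval of the difference -0.20 to 1.18), NFKB1 by 3.52 and 3.71 and RELB by 3.62 and 3.73. Of 13 feedback inhibitors 11 rose in each line, with a median difference of 0.08. The deubiquitinase TNFAIP3 rose by 5.78 and 6.29 (interval of the difference -0.08 to 1.12), and ZC3H12A, a ribonuclease that degrades cytokine mRNA, by 5.36 and 5.63. NFKBIA was the member with the lowest difference. Of 15 immediate early transcription factors 12 and 11 rose, with a median difference of 0.03. JUN rose by 2.73 and 3.02, JUNB by 2.86 and 2.77 and JUND by 1.11 and 1.31. Of 8 DUSP phosphatases, which switch off MAP kinases, 4 and 5 rose, and the difference was above 0 in 7, with a median of 0.17. The exception was DUSP1, with log2 fold changes of 3.83 and 3.404 and an interval of the difference of -1.06 to 0.20. DUSP10 had 0.66 and 0.69, and DUSP6 had 0.11 and 0.19. DUSP8, named after its values were seen, rose by 3.96 and 4.78.

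CXC chemokines, which attract neutrophils (CXCL1, CXCL2, CXCL3 and CXCL8) or T cells (CXCL9, CXCL10 and CXCL11), rose strongly in both lines. Of 8 tested CXC chemokines 7 rose in each line, with median log2 fold changes of 8.003 and 7.882. LPS raised 5.50% and 6.26% of all genes tested. CXCL8 had 7006, 5021 and 4187 TPM in shNR4A2 LPS and 6281, 4012 and 4115 TPM in shNR4A3 LPS libraries, with a difference of fold changes of -0.31 (95% interval -1.04 to 0.41). CXCL1 rose by 8.01 and 8.08, CXCL2 by 8.40 and 8.41 and CXCL3 by 9.68 and 9.40. Of 9 CC chemokines 7 and 8 rose, with a median difference of 0.28. CCL4 rose by 9.74 and 10.22 and its near-identical copy CCL4L2 by 9.72 and 9.41, 2 genes whose reads the counting could split either way, and CCL20 by 8.15 and 7.90 (interval of the difference -1.27 to 0.77).

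Of 10 IL-1 family genes 6 rose in each line, with a median difference of -0.11, 4 above and 6 below 0. IL1A rose by 8.66 and 9.07 on the log2 scale, and IL1RN, the receptor antagonist, had values of 0.44 and 0.70. Of 7 IL-6, IL-10 and IL-12 family cytokines 6 rose in each line, with a median difference of -0.21. IL23A rose by 7.02 and 7.30, IL12B by 8.38 and 8.17 and EBI3 by 6.31 and 6.20. Of 10 TNF superfamily ligands 5 rose in each line, and LTB rose by 1.95 and 2.43, while 3 fell in shNR4A2 and 1 in shNR4A3 cells. TNFSF10 (-1.06 and -0.94) and TNFSF13B (-1.04 and -0.85), named after their values were seen, passed the 2-fold limit in shNR4A2 cells only. Such a crossing does not show that the responses differ. Both tested colony-stimulating factors rose in both lines, CSF1 by 1.66 and 2.14 and CSF3 from 3 and 2 counts in control to 106 and 78 counts with LPS. IL36G, IL6, TNFSF18 and VCAM1 each had a group with 0 counts, so their fitted fold changes are no measure of the difference. Without IL6 the median difference of its list was -0.17, with 2 above and 4 below 0. Without IL36G the median difference of the IL-1 list was -0.08, with 4 above and 5 below 0.

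The list of interferons and interferon-stimulated genes, which act against viruses, had 27 tested members, of which 6 rose in shNR4A2 and 8 in shNR4A3 cells. Of all genes tested, 5.50% and 6.26% rose. The interferon gene IFNB1 had 1 and 0 counts in shNR4A2 and shNR4A3 control and 51 and 45 counts in LPS libraries, so its fold changes are not compared. Of the other 26 members, 5 and 7 rose, the median log2 fold changes were 0.32 and 0.55, and the difference was above 0 in 24, with a median of 0.24, against 47.8% above 0 of all genes tested. In the edgeR fit of 4 group means 0 members had an adjusted p under 0.05, and 0 had an unadjusted p under it. ISG15 rose by 1.05 in shNR4A3 cells, with a value of 0.91 in shNR4A2 cells, and IFI6 had 0.44 and 0.28. Guanylate-binding proteins and IRF1 had differences above 0 in 6 of 6, with a median of 0.33. GBP2 rose by 3.41 and 3.95 (interval of the difference -0.09 to 1.16) and GBP3 by 1.77 and 2.12.

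The antigen presentation, growth and stress lists had 0 or 1 called members each in either line, where 9.11% and 10.2% of all genes tested were called. None of 14 class I genes passed the 2-fold limit, with median log2 fold changes of 0.32 and 0.28. HLA-B had values of 0.68 and 0.66 and B2M of 0.58 and 0.48. Of 10 class II genes 1 rose in each line, HLA-DRA by 1.41 and 1.33, and the median difference was -0.13. None of the 9 proliferation genes rose and 1, MYC, fell in each line, and 8 of 9 differences were below 0, with a median of -0.08. No heat shock gene was called, and 8 of 8 differences were below 0, with a median of -0.07. The assignment of HLA reads between alleles and copies is uncertain.

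Of 9 adhesion and clotting genes 5 rose and 1 fell in each line, with ICAM1, the ligand of leukocyte integrins, at 6.09 and 6.37, tissue factor F3 at 1.12 and 1.28 and PLAU at 1.32 and 1.44. Of 11 metabolic genes 5 and 6 rose, with SOD2, the mitochondrial superoxide dismutase, at 6.79 and 6.71 and SLC2A6, a lysosomal sugar transporter, at 5.47 and 5.52.

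**Figure D5:**
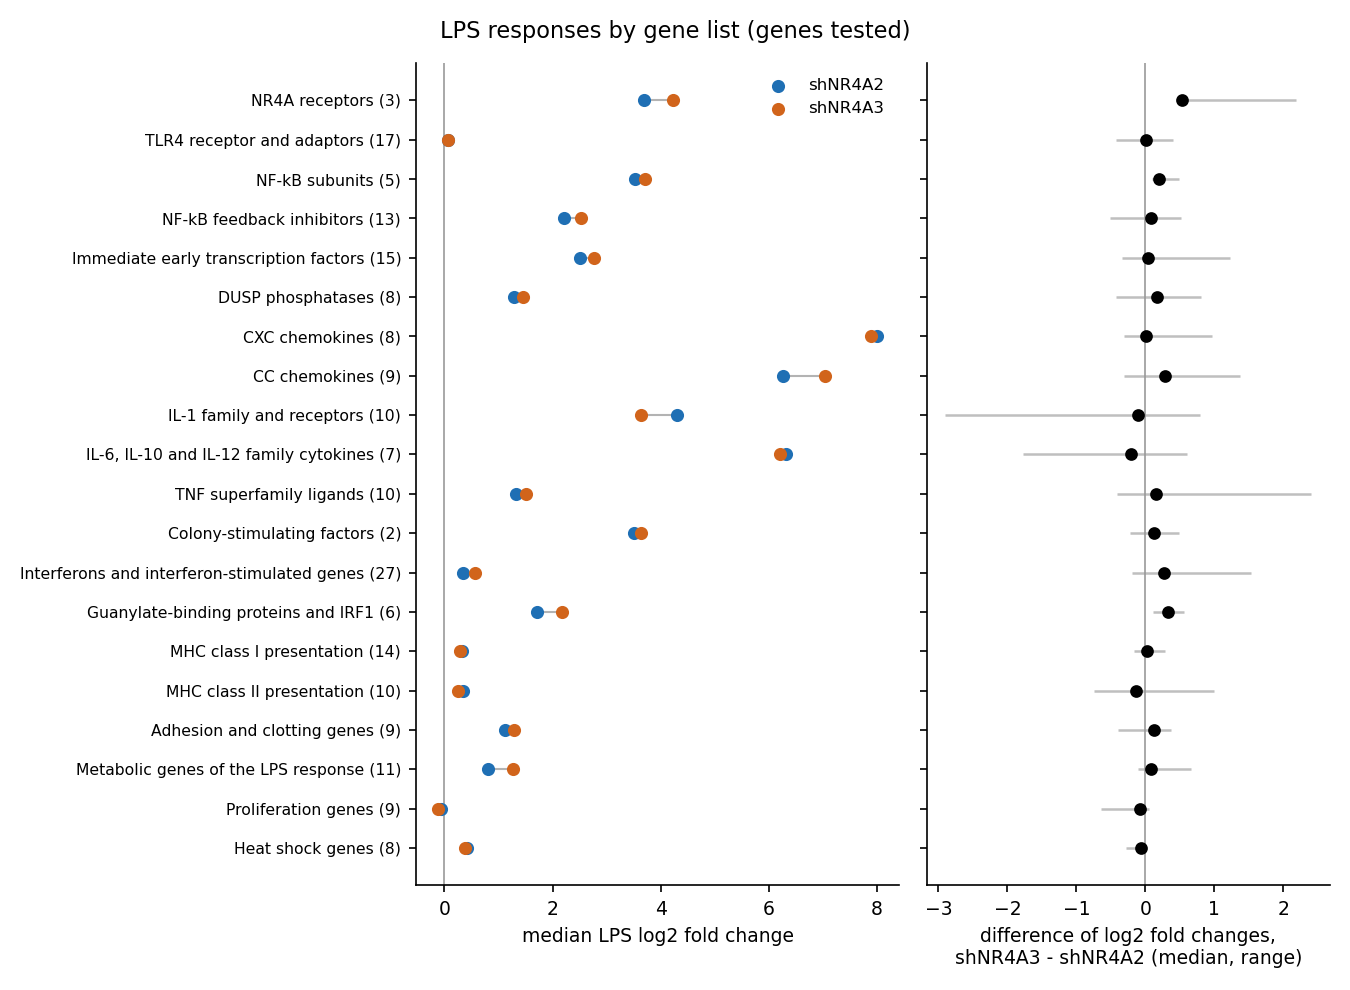
Median LPS log2 fold change of 20 gene lists in shNR4A2 (blue) and shNR4A3 (orange) cells, left, and the median (point) and range (line) of the difference, shNR4A3 minus shNR4A2, right, with the number of genes tested in brackets, IFNB1, IL36G, IL6, TNFSF18 and VCAM1 with a group at 0 counts included. Medians lie close together in most lists, and no gene of these lists had an adjusted p under 0.05 for the difference in the edgeR fit of 4 group means.

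The strongest responders of shNT cells also changed strongly in both lines. The 5 with the largest rise there were CXCL3, CCL4, CCL4L2, TNFAIP6 and MIR3142HG. TNFAIP6, a hyaluronan-binding protein, rose by 9.66 and 9.38 on the log2 scale, and MIR3142HG, the host transcript of miR-146a, by 9.35 and 10.36. The 5 with the largest fall were GPR82, AC011504.1, CASS4, ADORA3 and CCR2. CCR2, the receptor of CCL2, was the abundant one and fell from 310 to 25.2 TPM in shNR4A2 and from 310 to 20.3 TPM in shNR4A3 cells, with log2 fold changes of -3.38 and -3.73. GPR82 had log2 fold changes of -3.71 and -2.81, CASS4 of -3.16 and -4.04 and ADORA3 of -3.28 and -3.26.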

How the data were processed

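Polyadenylated RNA of 12 THP-1 libraries was analysed, 3 in each of 4 groups, with the 6 shNT libraries as reference. The authors deposited whole-number counts per Ensembl gene for 57500 genes, without normalization. Per the submitters' processing notes, Trimmomatic 0.36, STAR 2.5.2b and featureCounts of Subread 1.5.2 were used with GRCh38. The study used DESeq2. The strand setting is not given in the sources used here. Symbols came from GENCODE 29 (56898 genes), and no pair of libraries was identical.

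Counts were tested with edgeR 4.0.16 (R 4.3.3; filterByExpr defaults, TMM, quasi-likelihood F test), 4 group means over the 12 libraries and Benjamini-Hochberg adjustment over 16447 genes. LPS calls needed an adjusted p under 0.05 and a 2-fold change, and the interaction an adjusted p under 0.05. Standard errors and 95% intervals are Wald values from that fit. Genes for amplitude were called by edgeR in the 6 shNT libraries. Log2 CPM values used a prior count of 2. Lists are described by counts and medians, with no set test.

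Same-numbered libraries were checked for pairing. The correlation of their deviations from the group means was 0.126 to 0.474 in all 18 pairs, above the limit of 0.1, so the numbers pair the libraries. The pairing comes from the labels' replicate numbers and this check.

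Named were the 12 genes with the smallest interaction p in each direction, list members called in the interaction, the NR4A genes, TLR4, LY96 and CD14, the 3 members of each list with the highest mean TPM, and the 5 genes with the largest rise and fall in shNT cells. Some genes that this rule or the marker lists hold are not reported here. Members and lists were chosen with earlier results of these data known. The fit with an LPS effect for each replicate number, the analysis without replicate 2 and the paired test of the slopes were added after the data were seen. DESeq2 1.42.0, other normalization, no filter, replicate blocks, 18 libraries in 1 fit and each library left out were among the alternatives. For amplitude they included a regression with an intercept, a prior count of 0.5, other choices of genes and a major axis. The procedure was tested on simulated data. Figures used matplotlib 3.10.9.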

Additional observations from a re-analysis of the deposited data

How the results depend on the processing

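The interaction of line and LPS had 0 genes called by edgeR in the planned fits with the replicate block, with RLE factors, with all 18 libraries and with any single library left out. DESeq2 called 1 gene, the analysis without a filter 29 and the fit with an LPS effect for each replicate number 34, the last chosen after the data were seen. Without a fold limit the LPS calls were 4012 in shNR4A2 and 4106 in shNR4A3 cells. With single libraries left out, the amplitude difference ran from 0.00932 to 0.0965 over all genes. It ran from 0.01165 to 0.0983 over raised and from -0.00955 to 0.0850 over lowered genes. A regression with an intercept lowered the difference over raised genes from 0.0535 to 0.0103. CCL20 ran from -0.51 to 0.0717 around its difference of -0.25. Of the differences of 52 named genes under the alternatives, 991 kept their direction and side of the threshold, 48 passed it and 1 changed sign. Fold changes that rest on few counts, such as the 9 of NR4A3 in shNR4A3 control libraries, are imprecise at this depth.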

Other observations

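Among transcripts outside the rule for named genes, NEAT1, a long noncoding RNA of nuclear paraspeckles, was chosen after its values were seen. It rose by 1.83 on the log2 scale in shNR4A3 cells, with a value of 0.87 in shNR4A2 cells. Its mean was 11.2 and 17.0 TPM in shNR4A2 control and LPS libraries and 11.6 and 35.3 TPM in shNR4A3 control and LPS libraries. LENG8 had LPS log2 fold changes of -0.92 and -0.16.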
